A study of Sus scrofa with 32 samples.

Results

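The change of the fetal pig liver transcriptome between 35 and 63 days post coitum (dpc) was followed in Pietrain fetuses whose mothers (gilts) ate the control diet during gestation. All arrays labelled with that diet and either age were taken, 5 at 35 dpc and 6 at 63 dpc, which makes 11 of the 32 samples of the series, 1 array a sample. Groups at 91 dpc and groups whose mothers ate a diet enriched in methylating micronutrients make up the other samples. The design text says that offspring of 5 to 6 gilts were taken at each stage, so the number of gilts limits the precision as much as the number of arrays. Dam, litter and fetal sex are not labelled for any array. The p-values measure only the spread between samples, and those of limma, the linear model used below, take it from all 32 arrays. No genetic or drug treatment was involved. Values are log2 signals of whole liver RNA, 1 per probe set, where a difference of 1 is a 2-fold change.

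The fetal liver carries several jobs at once. Early in gestation it is the main site of red blood cell formation, with erythroid precursors packed between immature hepatocytes. As hepatocytes mature they take over the making of plasma proteins, among them albumin, carriers, clotting factors and complement, and they begin to form bile. Breakdown of amino acids, glucose release and detoxification are hepatocyte tasks that reach their full extent late in gestation or after birth. In bulk RNA, fewer cells of a type and less RNA per cell cannot be told apart.

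Hepatocyte markers matched the tissue label on all 11 arrays. TF (transferrin) lay between 15.76 and 15.90, TTR (transthyretin) between 15.29 and 15.65 and APOA1 (the main protein of high-density lipoprotein) between 15.82 and 16.20. Array medians were 3.88 ± 0.06 (SD, n = 5) at 35 dpc and 4.0 ± 0.08 (n = 6) at 63 dpc (exact two-sided permutation test over 462 arrangements, p = 0.0303). The share of values at the floor of the scale was 25% ± 0.54 and 26.1% ± 0.70 (exact permutation p = 0.0238). The log2 of the 3' to 5' signal ratio of the control genes, a sign of RNA integrity, was 1.75 ± 0.34 and 1.57 ± 0.29 (exact permutation p = 0.381). The arrays also fell into 2 classes by the gap between the spike-in controls bioC and bioB, large (1.56 to 1.76) in 3 and 3 arrays and small (0.33 to 0.39) in 2 and 3 arrays at 35 and 63 dpc. The part of the array median, the floor share and the gap in the results was not tested beyond the fits given below.

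The arrays of an age were not alike. To place each fetus on the course from 35 to 63 dpc without using its own values, the 2400 probe sets that rose and the 803 that fell at least 2-fold in the methyl-diet arrays alone were averaged, and the scale was set to 0 at the methyl-diet mean at 35 dpc and to 100 at that at 63 dpc. Control fetuses labelled 35 dpc stood at 36.8, 40, -17.9, -10.2 and 14.4 (replicates 1 to 5). Those labelled 63 dpc stood at 75.7, 47.1, 101.1, 71.2, 128.8 and 119.2 (replicates 1 to 6). The ages did not overlap, but 63 dpc replicate 2 stood next to 35 dpc replicate 2. On the rising probe sets alone, 63 dpc replicate 2 (41.0) lay below 35 dpc replicates 1 and 2 (43.2 and 46.4). Over all probe sets kept, the mean correlation of that array was 0.969 with the 35 dpc arrays and 0.960 with its own age, the reverse of the other 10 arrays. Its EIF1AY signal, a Y-linked transcript, was 2.64, against 6.27 to 8.81 in the other 63 dpc arrays. Its label was kept, and leaving it out raised the number of probe sets called from 6055 to 6707, with 5947 of the 6055 still called.

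**Figure D1:**
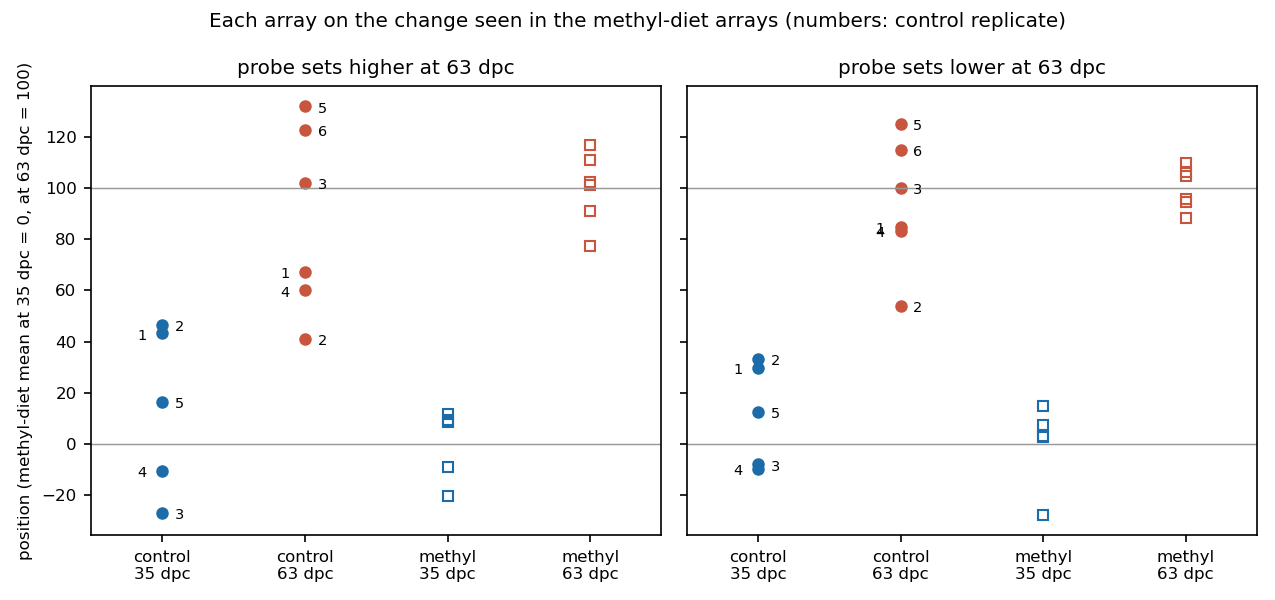
Position of each array between the methyl-diet means at 35 dpc (0) and 63 dpc (100), for the 2400 probe sets that rose (left) and the 803 that fell (right) in the methyl-diet arrays; filled circles are control-diet arrays with their replicate number, open squares methyl-diet arrays, from which the scale was made. Control arrays spread from -26.9 to 46.4 at 35 dpc and from 41.0 to 132 at 63 dpc on the rising probe sets, where replicate 2 of 63 dpc lies among the 35 dpc arrays.

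Between the ages a large part of the transcriptome shifted. Of 15327 probe sets tested with limma, a linear model with moderated errors, 6055 (39.5%) passed a Benjamini-Hochberg adjusted p of 0.05, 3064 higher at 63 dpc (20%) and 2991 lower (19.5%). Rises were larger than falls: 1401 probe sets rose and 571 fell over 2-fold, 120 and 35 over 4-fold, and 17 and 12 over 8-fold. Counted over all probe sets tested, called or not, the arrays of the ages did not overlap in 869 that were higher at 63 dpc (5.67%). The same held for 1193 that were lower (7.78%). Taking the brightest probe set of each of 5594 named genes, 2727 (48.7%) were called, 1104 higher (19.7%) and 1623 lower (29%). These last shares are the background against which the gene lists below are read, and a list with shares near them did not stand out. The median difference was 0.03 over all probe sets and -0.09 over the brightest ones. With the 11 arrays fitted alone 4069 were called, and with the spike-in gap class as a block 6844. Within the large-gap arrays alone 5041 were called and within the small-gap arrays alone 621, where 10 of the 6055 calls had the opposite sign.

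Among the largest rises were IGFBP2, KLKB1, ALB, ABCB11 and PDZK1. IGFBP2, which binds insulin-like growth factors in blood, read 6.16, 5.92, 6.09, 6.92 and 6.40 at 35 dpc and 10.53 to 11.24 (median 10.95) at 63 dpc. Every 63 dpc array lay above every 35 dpc array, and the rise was 4.65 ± 0.52 (SE), or 25.1-fold (limma adjusted p = 1.36e-07). KLKB1, the precursor of plasma kallikrein of the contact pathway of clotting, read 4.80, 5.42, 3.88, 5.42 and 5.24, then 8.41 to 9.52 (median 9.29), a rise of 4.14 ± 0.34 (limma adjusted p = 1.52e-09). ALB, serum albumin, read 12.12, 12.34, 9.90, 11.28 and 11.59, then 13.88 to 15.19 (median 14.88). The lowest of the 63 dpc values for ALB belonged to replicate 2, yet it stood above the highest 35 dpc array, and the rise was 3.34 ± 0.27, or 10.1-fold (limma adjusted p = 1.52e-09). ABCB11, the bile salt export pump of the canalicular membrane, read 3.87, 4.03, 3.62, 2.94 and 4.19, then 5.87 to 7.62 (median 7.01). It rose 9.13-fold (3.19 ± 0.28, limma adjusted p = 4.67e-09). PDZK1, a scaffold protein of epithelial membranes that holds the lipoprotein receptor SCARB1 in place, read 4.78 to 7.14 and then 9.32 to 9.99, a rise of 3.61 ± 0.37. Within the large-gap and the small-gap arrays the rise was 4.65 and 4.61 for IGFBP2, 4.42 and 3.70 for KLKB1 and 3.69 and 2.86 for ALB.

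Other large rises were in genes with different tasks. SLC2A5, the fructose transporter, rose by 3.46 ± 0.77, and its 63 dpc arrays ran from 5.85 to 8.24. At 35 dpc it read 2.90 in replicate 1 and an identical 3.61 in every other array. Whether that shared value is a floor of the probe set was not tested. VSNL1, a neuronal calcium sensor, read 2.94 to 3.04 at 35 dpc, close to the background of the arrays, and 4.74 to 7.0 at 63 dpc (3.40 ± 0.34). LRRN3, a leucine-rich repeat membrane protein, rose by 3.80 ± 0.43, and SORBS2, an adaptor of the actin skeleton that was above background in 3 of 5 arrays at 35 dpc, by 3.35 ± 0.34. A pair of epithelial adhesion genes rose together. EPCAM, an adhesion molecule of hepatoblasts and bile duct cells, read 3.78 to 4.79 and then 6.37 to 7.28, and CDH1, E-cadherin of epithelial junctions, read 7.86 to 8.84 and then 10.46 to 11.22. Their rises were 2.74 ± 0.25 and 2.41 ± 0.22 (limma adjusted p = 8.35e-09 and 7.68e-09). The other genes among the 20 largest rises were PALMD (2.85), IFIT1 (2.71), ZNF277 (2.64), CLEC2D (2.53), FNDC1 (2.39), OCIAD2 (2.37), DPP4 (2.29, and 1.76 without 35 dpc replicate 3), a membrane peptidase, SQOR (2.28), which oxidizes sulfide in mitochondria, and C1S (2.2), a complement protease.

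**Figure D2:**
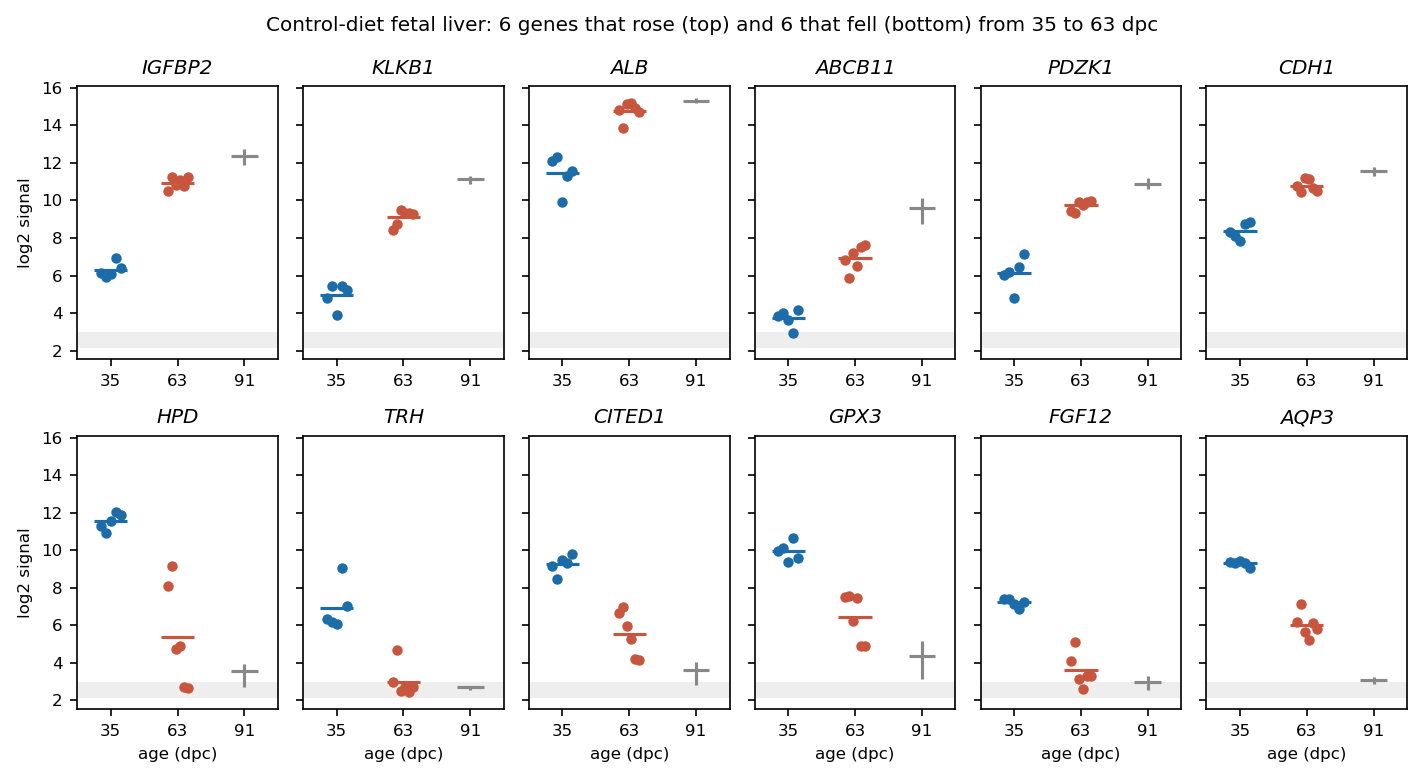
Log2 signal of 6 genes that rose and 6 that fell, at 35 dpc (blue, 5 arrays) and 63 dpc (red, 6 arrays), with group means as bars; grey shows the mean and range of the 5 control-diet arrays at 91 dpc, and the grey band the floor and background of the arrays. The 35 and 63 dpc points do not overlap in any panel, and HPD spreads from 2.67 to 9.18 at 63 dpc.

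Clotting factors were mostly higher. Of 13 measured genes of coagulation, anticoagulation and fibrinolysis 12 rose and 0 fell (background 19.7% and 29%), with a median difference of 1.02, against -0.09 over all genes. F5, coagulation factor V, read 8.65, 8.39, 7.68, 7.37 and 7.88 and then 9.57 to 10.44 (2.12 ± 0.22). F9, the factor missing in haemophilia B, rose by 1.30 ± 0.17, PROS1, the anticoagulant protein S, by 1.44 ± 0.20, VTN, vitronectin, by 1.14 ± 0.12 and FGG, the fibrinogen gamma chain, by 0.90 ± 0.14. In 11 of the 13 genes the ages did not overlap, against 5.67% of all probe sets tested that were higher without overlap. That share is per probe set, not per gene. Between 10 and 12 of the 13 rose whichever array was left out.

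Complement genes moved in the same direction with exceptions. Of 19 genes 11 rose and 2 fell, with a median of 1.04. C1S rose by 2.2 ± 0.20, C5 of the terminal pathway by 2.04 ± 0.34, C4BPB, a chain of the C4b-binding inhibitor, by 1.65 ± 0.23, C3, the central component, by 1.54 ± 0.22, C9 of the membrane attack complex by 1.5 ± 0.25 and CFB of the alternative pathway by 1.35 ± 0.13. C3 read 13.05, 12.40, 11.85, 13.49 and 13.24 and then 14.19 to 14.55, so its 63 dpc arrays lay closer together than its 35 dpc arrays.

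Plasma carriers did not move as one. Of 36 measured carriers, apolipoproteins and secreted glycoproteins 15 rose, 6 fell and 15 did not pass, and their median of 0.19 was far below that of clotting and complement genes. The inter-alpha-trypsin inhibitor chains ITIH3 (2.14 ± 0.22) and ITIH2 (1.08 ± 0.11), which bind hyaluronan, rose, as did SERPINA7, the thyroxine carrier (1.37 ± 0.18), and APOC3, an inhibitor of lipoprotein lipase (0.61 ± 0.09). SERPINA6, the cortisol carrier, went the other way, from 13.26, 13.53, 13.57, 13.58 and 13.57 to between 11.82 and 12.44, a fall of 1.49 ± 0.18 with no overlap (limma adjusted p = 3.6e-07). Several abundant products showed little difference. AFP, the fetal counterpart of albumin, was 15.75 ± 0.17 and 15.83 ± 0.07, a difference of 0.07 ± 0.07 (limma adjusted p = 0.415), while ALB rose 10.1-fold. TF differed by 0.02 ± 0.05 and TTR by -0.00 ± 0.07. These signals lie near the top of the scale, which reached 16.5 on the 11 arrays, and whether differences there are compressed was not tested. APOA1 passed with 0.17 ± 0.06, a call lost without 35 dpc replicate 5.

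Genes of bile formation rose with ABCB11. SLC10A1, which takes bile acids up from blood, read 6.84, 7.37, 7.37, 7.73 and 7.86 and then 8.43 to 10.18 (1.79 ± 0.31), and ACOX2 and AMACR, peroxisomal enzymes that shorten the side chain of bile acids, rose by 1.04 ± 0.14 and 1.2 ± 0.27. In all, 4 of 7 measured bile acid genes rose and 0 fell. In cholesterol synthesis 4 of 11 rose, SC5D (1.51 ± 0.27), MSMO1 (1.17 ± 0.24), SQLE (1.13 ± 0.20) and HMGCS1 (0.67 ± 0.24), and FDPS fell by 0.36 ± 0.12. The call for HMGCS1 was lost in 4 and that for FDPS in 3 of the 11 fits that left out 1 array. INSIG1, a sterol-sensing brake on that pathway, differed by 0.29 ± 0.15 and did not pass (limma adjusted p = 0.118).

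Among hepatocyte transcription factors, 6 of 20 rose and 0 fell (background 19.7% and 29%). There was 1 fall without 35 dpc replicate 1 or 63 dpc replicate 2. NR5A2, a nuclear receptor that drives bile acid genes, read 6.23, 6.54, 5.55, 5.79 and 6.46 and then 7.51 to 8.58 (1.91 ± 0.22, limma adjusted p = 2.56e-07). FOXA2, a pioneer factor of endoderm, rose by 1.21 ± 0.18 and NFIA, above background in 3 of 5 arrays at 35 dpc, by 1.68 ± 0.28, in neither case with overlap. NFIB (1.38 ± 0.35) and PPARGC1A, a coactivator of glucose release and mitochondrial genes (0.96 ± 0.24), passed with overlapping arrays. HNF4A, which holds hepatocyte identity, rose by only 0.33 ± 0.12 and lost its call in 5 of the 11 fits that left out 1 array. CEBPA did not pass (-0.79 ± 0.34, limma adjusted p = 0.063).

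Metabolic genes split by pathway. For glucose release and glycogen, 4 of 12 genes rose and 3 fell, and 5 fell without 35 dpc replicate 1. UGP2, which makes the glucose donor of glycogen, rose by 1.58 ± 0.22, the gluconeogenic enzyme FBP1 by 1.0 ± 0.19 and the liver glycogen phosphorylase PYGL by 0.95 ± 0.12, while PHKG2, a phosphorylase kinase subunit, fell by 1.01 ± 0.21 and pyruvate carboxylase (PC) by 0.71 ± 0.20. PCK1, the cytosolic entry enzyme of gluconeogenesis, did not pass (-0.73 ± 0.32, limma adjusted p = 0.0707). Its mitochondrial partner PCK2 fell by 0.52 ± 0.21, a call lost in 5 of the 11 fits that left out 1 array. Fatty acid oxidation and ketone synthesis had 8 rises and 7 falls among 25 genes. The acyl-CoA synthetases ACSL1 and ACSL5 rose by 1.32 ± 0.20 and 1.30 ± 0.18, and the carnitine carrier SLC25A20 and the dehydrogenases ACADVL and ACADS fell by 1.2 ± 0.15, 0.94 ± 0.14 and 0.84 ± 0.15. Lipid synthesis and storage (5 rises and 4 falls of 19) and xenobiotic metabolism (6 and 5 of 27) were as evenly divided (background 19.7% and 29%). There PNPLA3 (1.06 ± 0.24), CES1 (1.30 ± 0.30) and ALDH1A1 (1.2 ± 0.19) rose, and AGPAT2 (-0.89 ± 0.21) and MGST3 (-0.76 ± 0.17) fell.

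The largest fall of a named gene was that of HPD, which converts hydroxyphenylpyruvate in tyrosine breakdown. It read 11.30, 10.93, 11.58, 12.02 and 11.85 at 35 dpc and 8.08, 9.18, 4.72, 4.88, 2.70 and 2.67 at 63 dpc (replicates 1 to 6), above background in 4 of the 6. The ages did not overlap, but the 63 dpc arrays were far apart, and the fall of 6.16 ± 0.79 (limma adjusted p = 1.02e-06) was between 5.62 (without 63 dpc replicate 6) and 6.92 (without 63 dpc replicate 2) when 1 array was left out. With each 63 dpc array that was not above background set to its background, the group mean of HPD was at least 70.2-fold lower. Here and below, such a bound concerns the means of all arrays, and leaving out 1 array can give a smaller difference. TAT, the enzyme just before HPD in the same pathway, rose by 0.65 ± 0.22, a call lost without 35 dpc replicate 2.

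Other large falls were in genes of signalling, transport and secretion. TRH, the precursor of thyrotropin-releasing hormone, read 6.32, 6.17, 6.09, 9.03 and 7.03 and then 2.44 to 4.68 (median 2.70), above background in 2 of 6 arrays at 63 dpc, a fall of 3.93 ± 0.40 (limma adjusted p = 3.27e-08) that was 3.40 without 35 dpc replicate 4, the highest array. Bounded in the same way as HPD, the group mean of TRH was at least 13.9-fold lower. CITED1, a transcriptional coregulator, read 9.18, 8.48, 9.46, 9.31 and 9.82 and then 4.16 to 7.0 (-3.71 ± 0.36). FGF12, an intracellular member of the fibroblast growth factor family, was above background in 5 of 6 arrays at 63 dpc and at least 12.1-fold lower. GPX3, the secreted glutathione peroxidase, read 9.95, 10.13, 9.40, 10.65 and 9.60 and then 4.89 to 7.55, a fall of 3.51 ± 0.44. AQP3, a channel for water and glycerol, was nearly level at 35 dpc (9.06 to 9.45) and read 5.23 to 7.13 at 63 dpc, a fall of 3.29 ± 0.29 (limma adjusted p = 4.67e-09). PEBP4 was above background in 5 of 5 arrays at 35 dpc and in 0 of 6 at 63 dpc, at least 6.17-fold lower. For all 6 genes every 63 dpc array lay below every 35 dpc array. ABAT, the enzyme that breaks down GABA, ended above background in 1 of 6 arrays and was at least 4.42-fold lower. The other large falls ran from -2.58 (SELENOM, a selenoprotein of the endoplasmic reticulum) to -1.91 (PLA2G1B, a secreted phospholipase) and took in NANOS1, CSRP2, KLRK1, ANGPTL4, an inhibitor of lipoprotein lipase, FABP3, a fatty acid carrier of muscle and heart, SLC16A13, the mitotic inhibitor kinase PKMYT1, the survival kinase PIM2, DUSP14 and CDC42EP2.

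Glycolysis was lower as a pathway. Of 19 measured genes 0 rose and 15 fell (background 19.7% and 29%), with a median of -0.59. Within the large-gap arrays alone 11 fell and within the small-gap arrays alone 1, with medians of -0.63 and -0.53. PFKM, a phosphofructokinase, read 7.73, 7.35, 8.05, 7.82 and 8.03 and then 5.67 to 6.89, a fall of 1.52 ± 0.22 (limma adjusted p = 6.3e-06). PFKL, the liver form, fell by 1.14 ± 0.22, TPI1 by 1.04 ± 0.19, LDHB by 0.73 ± 0.11, LDHA by 0.70 ± 0.14 and GPI by 0.58 ± 0.12. SLC2A1, the glucose transporter of red cell precursors and many fetal tissues, fell from 12.33 ± 0.46 (SD, n = 5) to 11.06 ± 0.42 (n = 6), and SLC2A2, that of hepatocytes, did not pass (0.74 ± 0.48, limma adjusted p = 0.23).

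Most respiratory chain genes were lower too. Of 58 measured genes of oxidative phosphorylation 39 fell and 1 rose, with a median of -0.54. NDUFA9 and NDUFAB1 of complex I fell by 1.04 ± 0.14 and 0.81 ± 0.12, SDHA of complex II by 0.73 ± 0.11, COX7A2 of complex IV by 0.85 ± 0.09 and ATP5B of the ATP synthase by 0.53 ± 0.08. COX7A2 read 12.70 to 12.92 and then 11.59 to 12.34, so that even this change of less than 2-fold separated the ages. Antioxidant and selenoprotein genes had 26 falls and 5 rises among 40 (median -0.55). Beside GPX3 and SELENOM, GPX4, which removes lipid peroxides, fell by 0.81 ± 0.12, PRDX1 by 0.80 ± 0.12 and SELENOH by 1.22 ± 0.20. HMOX1, which opens the heme ring, fell by 1.23 ± 0.16. Between 38 and 40 respiratory chain genes and between 25 and 27 antioxidant genes fell whichever array was left out. Within the large-gap arrays alone 39 and 24 fell, and within the small-gap arrays alone 4 and 3. The medians in the small-gap arrays were -0.47 and -0.42.

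Nitrogen metabolism was lower in part. Of 24 amino acid breakdown genes 5 rose and 10 fell (background 19.7% and 29%). The falls included AMT of glycine cleavage (-1.38 ± 0.15), OAT (-1.81 ± 0.24) and ALDH4A1 (-1.02 ± 0.14) of the ornithine and proline routes. ACAD8 of valine breakdown also fell (-0.86 ± 0.12), while KMO of the kynurenine pathway rose by 1.43 ± 0.24. Of 10 urea cycle and nitrogen disposal genes 1 rose and 6 fell (background 19.7% and 29%). The falls were 3 without 35 dpc replicate 4 or 63 dpc replicate 5. Within the large-gap and the small-gap arrays alone 0 were called lower, with medians of -0.34 and -0.39. ASS1 and ASL, the pair that makes arginine, fell by 0.60 ± 0.16 and 0.62 ± 0.19, while CPS1, the entry enzyme of the cycle, did not pass (0.22 ± 0.19, limma adjusted p = 0.37). GLUL, glutamine synthetase, which captures ammonia, read 9.78, 9.43, 9.38, 9.49 and 9.08 and then 9.93 to 10.71, a rise of 1.06 ± 0.22. In the methionine cycle with folate and choline, 5 of 22 genes rose and 4 fell (background 19.7% and 29%). CHDH and BHMT, the enzymes that carry choline carbon to homocysteine, rose by 1.71 ± 0.25 and 1.27 ± 0.31, and AHCY, which clears S-adenosylhomocysteine, and the folate enzyme ALDH1L1 fell by 0.76 ± 0.16 and 0.64 ± 0.17. The balance of rises and falls in this list turned to 3 more falls than rises in the large-gap arrays alone and to 2 more with the gap class as a block.

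**Figure D3:**
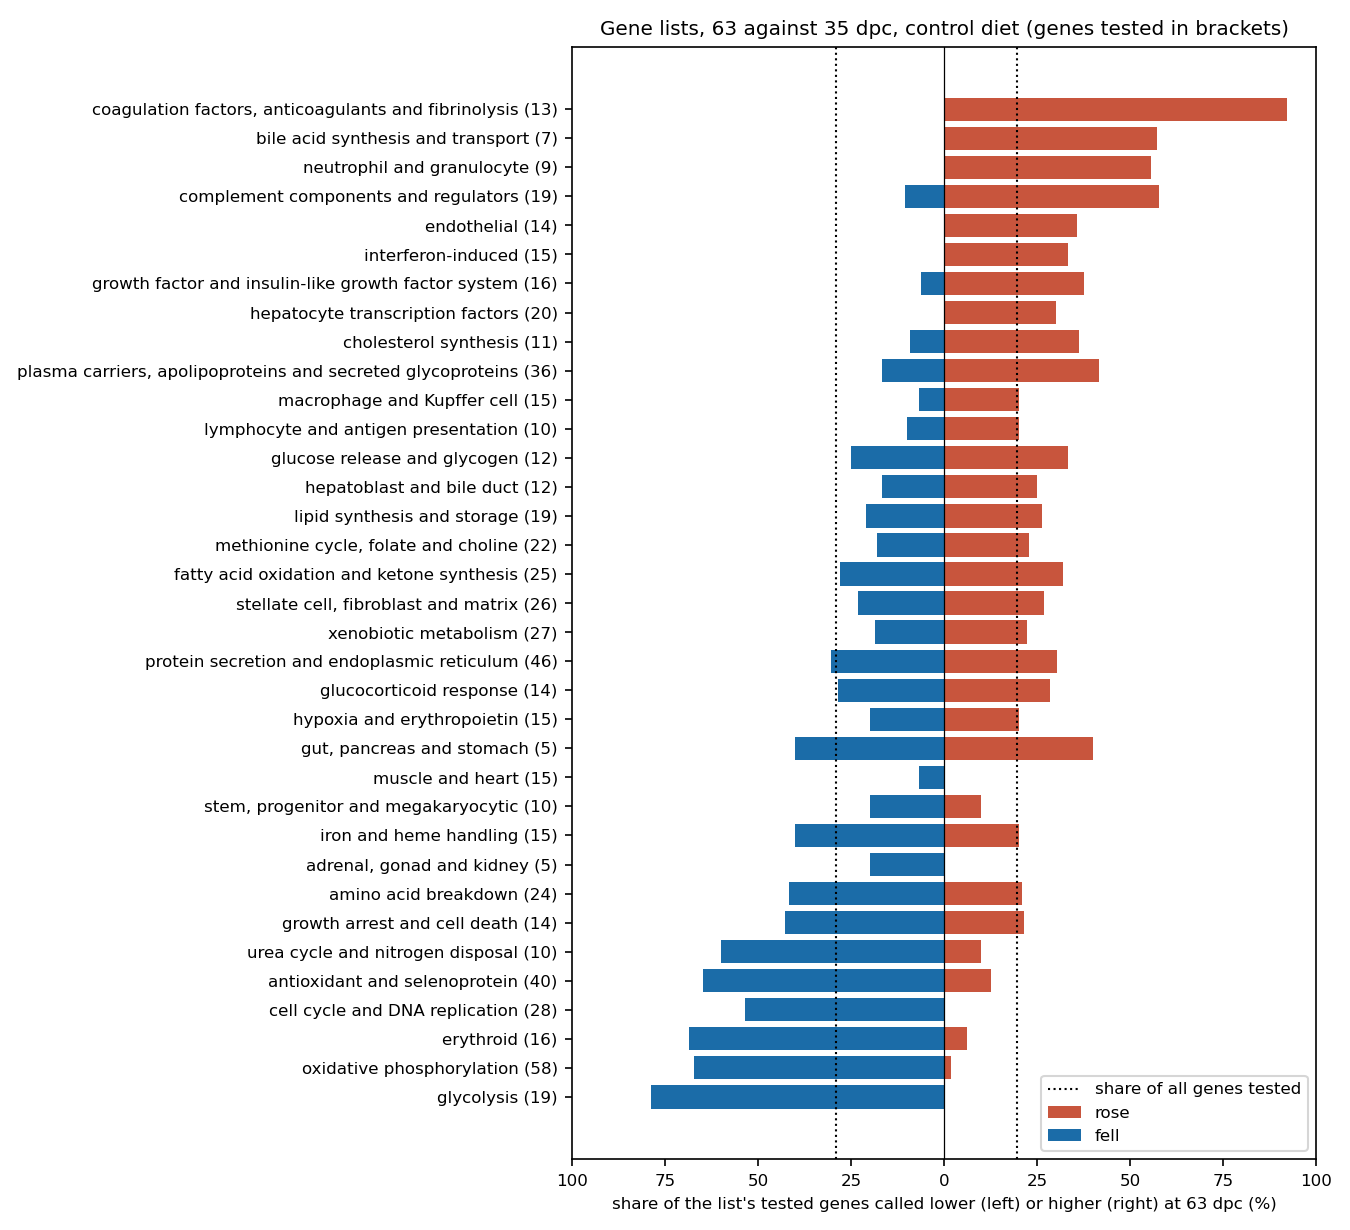
Share of the tested genes of each list called higher (red, right) or lower (blue, left) at 63 dpc, by the brightest probe set of each gene; dotted lines mark the shares over all 5594 genes, 19.7% higher and 29% lower. Coagulation genes lie at the top (12 of 13 rose) and glycolysis at the bottom (15 of 19 fell).

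Most genes of the red cell lineage were lower at 63 dpc. Of 16 measured erythroid genes 1 rose and 11 fell (background 19.7% and 29%), with a median of -0.62. The mean log2 level of the 16 was 11.09 to 11.33 over the 35 dpc arrays and 10.42 to 10.74 over the 63 dpc arrays. Within the large-gap arrays alone 8 fell and within the small-gap arrays alone 0, with medians of -0.64 and -0.71. Enzymes of heme synthesis fell, UROD by 1.15 ± 0.20, PPOX by 0.99 ± 0.17 and ALAD by 0.91 ± 0.17, as did KLF1, the main activator of adult globin genes (-1.19 ± 0.25), and BCL11A, which silences fetal globins in other species (-1.0 ± 0.23). UROD read 12.87, 12.99, 13.20, 13.14 and 12.88 and then 11.54 to 12.45. HBE1, an embryonic beta-like globin, read 8.65, 8.63, 9.20, 9.85 and 9.17 and then 7.36 to 8.18, a fall of 1.24 ± 0.30 without overlap (limma adjusted p = 0.00166). HBB, the adult beta globin, was the member that rose (0.96 ± 0.35, limma adjusted p = 0.0284), with overlapping arrays and a call lost in 5 of the 11 fits that left out 1 array. EPO, the hormone of red cell formation that the fetal liver itself makes, read 6.07, 3.69, 6.67, 7.11 and 6.13 and then 4.48, 4.65, 3.32, 3.37, 3.15 and 3.37. A single 35 dpc array, replicate 2, lay within the 63 dpc range, and the fall of 2.21 ± 0.39 (limma adjusted p = 8.31e-05) was 2.77 without that array. EPOR, its receptor, fell by 0.86 ± 0.20 with no overlap. Of 15 hypoxia genes 3 rose and 3 fell (background 19.7% and 29%). The rises included EGLN1 (1.08 ± 0.29) and HIF1A (0.80 ± 0.23), the oxygen sensor and the factor it controls. Of 15 genes of iron and heme handling 3 rose and 6 fell, against the same background. FTL and FTH1, the ferritin chains, fell by 0.44 ± 0.05 and 0.41 ± 0.07 on their brightest probe sets, while a second probe set of FTL rose by 1.72. HAMP, the iron hormone hepcidin, did not pass (0.23 ± 0.26, limma adjusted p = 0.496).

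Many genes of cell division fell beside them. Of 28 cell cycle and DNA replication genes 0 rose and 15 fell (background 19.7% and 29%). In all 15 the ages did not overlap, and 1 gene rose without 63 dpc replicate 2 or 4. Per probe set, 7.78% of all those tested were lower without overlap. Within the large-gap arrays alone 14 fell and 1 rose, and within the small-gap arrays alone 0 fell, with medians of -0.73 and -0.56. RRM2, which supplies deoxynucleotides, read 12.83, 13.02, 13.17, 13.07 and 13.03 and then 10.88 to 12.08, a fall of 1.68 ± 0.25 (limma adjusted p = 8.25e-06). The replication helicase subunits MCM5, MCM3 and MCM2 fell by 1.22 ± 0.23, 1.1 ± 0.20 and 0.98 ± 0.18, and the mitotic kinases PLK1 and AURKA by 1.16 ± 0.19 and 0.89 ± 0.17. TOP2A, which untangles chromosomes, did not pass and read higher on average (0.69 ± 0.34, limma adjusted p = 0.107). Without passing, CENPF (0.37), MAD2L1 (0.33), PCNA (0.26), NUSAP1 (0.22) and RRM1 (0.20) also read higher. The rest of the 13 members that did not pass read lower. Among 14 genes of growth arrest and cell death 6 fell and 3 rose, and the falls were 2 without 35 dpc replicate 3 and 3 without 35 dpc replicate 2 or 63 dpc replicate 1, 3 or 6. BCL2L1, a survival factor of erythroid cells, fell by 1.72 ± 0.25, and TXNIP, a glucose-induced brake on glucose uptake, rose by 1.23 ± 0.18. The erythroid, cell division and glycolysis lists were compared between the same arrays by design, and their levels were not related array by array. Erythroid cells also use glycolysis genes, and the part of red cell precursors in the falls of these lists was not tested.

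Markers of white cells were mixed, read against a background of 19.7% higher and 29% lower. Of 9 neutrophil and granulocyte genes 5 rose and 0 fell (median 0.78), among them PGLYRP1 (1.35 ± 0.38), ELANE (1.07 ± 0.23) and LTF (0.87 ± 0.25), while 3 rose without 35 dpc replicate 2 or 63 dpc replicate 2. Their mean log2 level was 7.41 to 8.05 at 35 dpc and 8.10 to 8.79 at 63 dpc. Of 15 macrophage and Kupffer cell genes 3 rose, MRC1 (1.38 ± 0.25), CTSS (0.99 ± 0.18) and LGMN (0.36 ± 0.08), and HMOX1 fell. The falls in this list numbered 1 to 3 when 1 array was left out (2 without 35 dpc replicate 1, 2 or 5 or 63 dpc replicate 1 or 4, 3 without 63 dpc replicate 2) and 4 under quantile normalization. Of 10 lymphocyte and antigen presentation genes 2 rose, SLA-DRA (1.81 ± 0.39) and CD74 (1.14 ± 0.39), partners in class II antigen display, and KLRK1, a receptor of natural killer cells, was above background in 2 of 6 arrays at 63 dpc and at least 4.77-fold lower. The call for CD74 was lost without 35 dpc replicate 1 or 5. Among 15 interferon-induced genes 5 rose and 0 fell. IFIT1 read 4.97, 5.43, 3.56, 5.21 and 4.14 and then 6.88 to 7.81 (2.71 ± 0.42), IFI44L rose by 1.88 ± 0.26, and EIF2AK2, the RNA-activated kinase, by 1.97 ± 0.56 with overlap (2.51 without 63 dpc replicate 2). Stem, progenitor and megakaryocytic genes had 1 rise, the platelet chemokine PPBP (0.84 ± 0.23), and 2 falls among 10, HOXA9 (above background in 4 arrays at 35 dpc and 0 at 63 dpc) and SPI1 (-0.78 ± 0.25, lost without 63 dpc replicate 5).

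Genes of the supporting cells of the liver moved in both directions. Of 26 stellate cell, fibroblast and matrix genes 7 rose and 6 fell, near the background of 19.7% and 29%. The falls were 3 without 35 dpc replicate 4. MGP, an inhibitor of calcification, read 3.73, 3.81, 4.41, 4.57 and 4.53 and then 5.17 to 7.18 (2.14 ± 0.31), POSTN rose by 1.82 ± 0.35 and FN1, fibronectin, by 0.63 ± 0.14, while DCN, the collagen-binding decorin, and the matrix protease MMP2 fell by 1.07 ± 0.21 and 0.90 ± 0.21. Of 14 endothelial genes 5 rose and 0 fell, with TEK, the angiopoietin receptor, at 1.55 ± 0.26, PECAM1 at 0.47 ± 0.13 and LYVE1, a marker of sinusoidal endothelium, at 1.11 ± 0.40, the last lost in 3 of the 11 fits that left out 1 array. Among 12 hepatoblast and bile duct genes, EPCAM, the Notch ligand JAG1 (1.16 ± 0.21) and PEG3 (0.66, lost in 5 of the 11 fits that left out 1 array) rose, and SPP1 (-1.0 ± 0.27) and KRT18 (-0.65 ± 0.15) fell. KRT19 of bile ducts (-0.69 ± 0.42) and GPC3 (0.30 ± 0.13), an oncofetal proteoglycan, did not pass.

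Markers of neighbouring tissues passed the filter on low values for 15 of 25 muscle genes, 5 of 9 adrenal, gonad and kidney genes and 5 of 18 gut, pancreas and stomach genes. Of the 15 muscle and heart genes 1 fell and 0 rose, TNNI1 (-0.89 ± 0.33), a call lost in 6 of the 11 fits that left out 1 array. The falls in this list numbered 0 to 3 over those fits, 3 without 35 dpc replicate 1. The mean level was 4.85 to 5.54 and 4.75 to 5.22. Of 5 adrenal, gonad and kidney genes 1 fell, HSD3B1 (-0.80 ± 0.24), with a mean level of 3.68 to 4.67 and 3.53 to 3.88. Of 5 gut, pancreas and stomach genes 2 rose, AMY2 (1.03 ± 0.29) and VIL1 (0.58 ± 0.23), and 2 fell, CHGA (-1.08 ± 0.26) and CELA1 (-0.65 ± 0.21). Their mean level was 6.22 to 6.80 and 6.17 to 6.58. VIL1 lost its call in 8 of the 11 fits that left out 1 array, CELA1 without 35 dpc replicate 4 and HSD3B1 without 35 dpc replicate 3, and 2 genes of the adrenal list fell without 35 dpc replicate 2. No marker of the lung list passed the filter on low values. The part of other tissue in the samples was not tested beyond these levels.

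Growth factor genes were divided. IGF2, the chief fetal growth factor of this family, read 14.48 ± 0.08 and 14.48 ± 0.23, a difference of -0.00 ± 0.10 (limma adjusted p = 0.988). IGFBP1, a second binding protein, rose by 1.11 ± 0.25, EGFR by 1.06 ± 0.22, IGF1R by 0.83 ± 0.28 and VEGFA by 0.61 ± 0.20, and ANGPTL4 fell by 2.27 ± 0.31. The calls for IGF1R and VEGFA were lost in 3 and 4 of the 11 fits that left out 1 array. Second probe sets of IGF1R and IGFBP1 differed by 0.01 and -0.30 and did not pass. That of VEGFA rose by 1.43 (limma adjusted p = 6.36e-06). In the whole list 6 of 16 rose, 1 fell and 9 did not pass, and 3 rose without 35 dpc replicate 3 or 63 dpc replicate 5. Glucocorticoid response genes had 4 rises (2 without 35 dpc replicate 2 or 3) and 4 falls among 14 (background 19.7% and 29%). SGK1 was up by 0.80 ± 0.15, and PER1 and the cortisol-activating enzyme HSD11B1 were down by 0.70 ± 0.17 and 0.59 ± 0.15. The secretory route was divided as evenly, 14 rises and 14 falls among 46. There the coat protein COPB1 (1.16 ± 0.25) rose, and DAD1 (-0.71 ± 0.12) and DDOST (-0.69 ± 0.15) of the glycan-adding complex fell with the chaperone HYOU1 (-0.90 ± 0.20).

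The methyl-diet fetuses, on other arrays, gave a comparison for the same interval. The test of the difference between the diets in the change from 35 to 63 dpc called 0 of 15327 probe sets (0%), with a smallest limma adjusted p of 0.195 and 507 (3.31%) at an unadjusted p under 0.05. With each diet's arrays fitted alone, 4069 probe sets were called under the control and 8005 under the methyl-enriched diet. Of these 3692 were called in the same direction in both, 90.7% of the control and 46.1% of the methyl-diet list, and 1 in opposite directions. The sign of the methyl-diet difference was that of the control call in 4056 of the 4069 (99.7%). IGFBP2 rose by 4.65 under the control and by 3.27 under the methyl-enriched diet (limma adjusted p of the difference = 1), KLKB1 by 4.14 and 3.92, and ALB by 3.34 and 3.41, while the differences were -6.16 and -6.66 for HPD and -3.93 and -4.31 for TRH. The smallest p belonged to a probe set without a gene name, with a difference of 0.96 under the control diet and -1.03 under the other. XIRP1, a muscle gene, differed by -0.47 and -2.18 (limma adjusted p of the difference = 0.62).

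**Figure D4:**
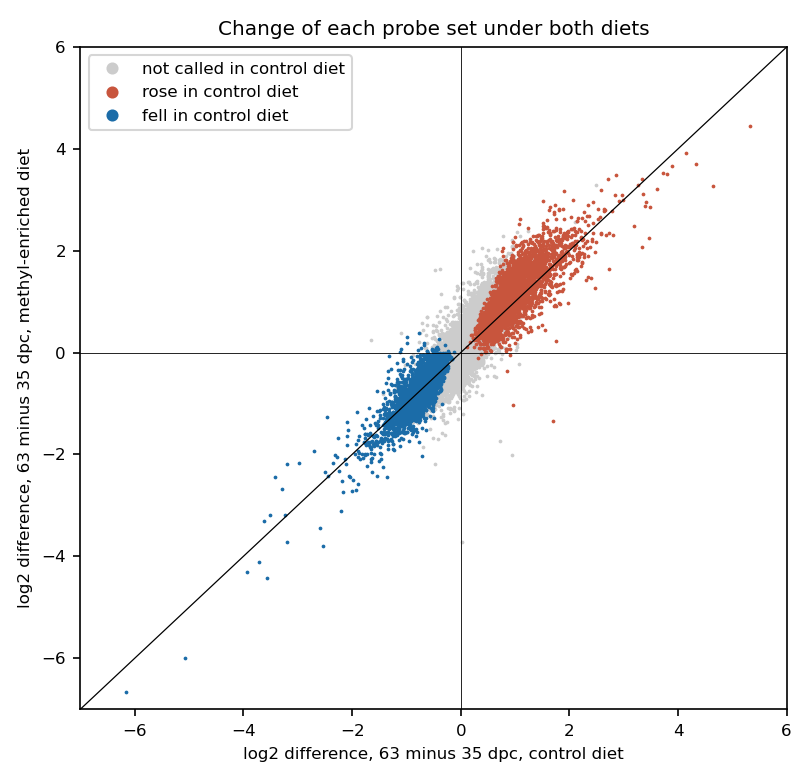
Log2 difference of 63 minus 35 dpc for each of 15327 probe sets under the control diet (horizontal) and the methyl-enriched diet (vertical), coloured by the control-diet call; the line marks equal change. Points called under the control diet lie along the line in both directions, from HPD at the lower left (-6.16 and -6.66) upward, and 0 probe sets passed the test of the difference.

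Levels at 91 dpc, from 5 further control-diet arrays, stand beside these changes as values only, since that comparison would share the 63 dpc arrays. IGFBP2 was at 12.38 ± 0.40 (SD, n = 5) at 91 dpc, KLKB1 at 11.16 ± 0.15, ABCB11 at 9.59 ± 0.58 and LRRN3 at 11.56 ± 0.22, above their 63 dpc means of 10.95, 9.09, 6.92 and 8.34. ALB, at 14.78 at 63 dpc, was at 15.29 ± 0.12. SLC2A5 was lower again at 91 dpc (5.32 ± 1.86 against 6.92), with the widest spread of these genes. Among those that fell, HBE1 was at 3.86 ± 0.71, SLC2A1 at 7.92 ± 0.48, AQP3 at 3.07 ± 0.16 and HPD at 3.56 ± 0.51. HPX, the heme carrier hemopexin, averaged 12.20 at 35 dpc, 11.58 at 63 dpc and 12.33 at 91 dpc.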

How the data were processed

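Total liver RNA of 32 pig fetuses, 11 of them used here for the main comparison, was labelled as cRNA and hybridised to Affymetrix porcine arrays, per the labels' protocols. The deposited values are log2 signals per probe set, used as deposited. Their normalization is not given in the sources used here, and GCOS 1.1.1 is named in the submitters' processing notes without a role. After 124 control probe sets were set aside, probe sets above the array's 40th percentile in at least 5 of 32 arrays were kept, 15327 of 23999. limma 3.58.1 in R 4.3.3 fitted the 6 group means over all 32 arrays with an intensity trend, and p-values were Benjamini-Hochberg adjusted over all probe sets kept. Of those kept, 7625 had 1 gene symbol in a platform annotation that may be old, 152 several and 7550 none. Genes in lists are read by their brightest probe set. A gene's level on 1 array is above background where it exceeds that array's 40th percentile. A probe set can hold 1 identical value above that percentile in a whole group and then counts as above background. MC2R of the adrenal list did so at 63 dpc (4.28, SD 0).

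Genes were named by rule: up to 20 rises and 20 falls with no overlap of arrays, up to 6 called members of each list, up to 10 probe sets of the diet test, and a short list whatever their p. The members and lists were chosen with earlier results of these data known. Fits were tested on simulated data. Alternatives varied the arrays fitted, the filter, the normalization, the weights, the spike-in gap class and single arrays left out.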

Additional observations from a re-analysis of the deposited data

Results flagged for a closer look

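In 21 of 394 groups of 5 or 6 arrays, for the genes named in the text, 1 array lay far from the rest by Dixon's test. Chance alone gives about 1 in 20. At 63 dpc replicate 2 was the array apart for 6 genes: it was lowest for ALB (13.88) and ACSL1 (12.02) and highest for TRH (4.68), SERPINA6 (12.44), IGFBP1 (13.15) and CDC42EP2 (3.82). At 35 dpc replicate 3 was apart for 7: lowest for C5 (6.16), C9 (8.17), F9 (9.89), TXNIP (10.73) and CLEC2D (2.80), and highest for ALAD (12.94) and EPCAM (4.79). On the scale from 0 to 100 between the ages these arrays stood at 47.1 and -17.9, the position nearest the other age and the one farthest from it in their groups. The remaining 8 were single cases. At 63 dpc VSNL1 was lowest (4.74) and ABAT highest (2.84) in replicate 1, SQOR highest (8.64) in replicate 4 and PER1 lowest (6.69) in replicate 6. At 35 dpc SLC2A5 (2.90) and SERPINA6 (13.26) were lowest in replicate 1, the probe set without a gene name that rose most (2.57) in replicate 4 and FTL (15.43) in replicate 5. For SLC2A5 at 35 dpc and CDC42EP2 at 63 dpc, all other arrays of the group shared 1 value (3.61 and 3.62). The test then had no spread among them to measure the far array against.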

How the results depend on the processing

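No paired analysis was possible because the replicate numbers follow accession order and mark no shared animal, litter or day. The number of arrays limits the precision, and the labels name no dam. With the 11 arrays fitted alone 1803 probe sets were called higher. With 1 probe set a gene 2890 were called, 1170 higher and 1720 lower. In the small-gap arrays alone 621 were called, 386 higher and 235 lower, from 5 arrays. Leaving out 1 array gave 4560 to 6707 called, 2195 to 3443 higher and 2365 to 3264 lower, and 0 to 3 for the difference between diets, which gave 2 with array weights. The difference of array medians ranged from 0.085 to 0.136 and that of the floor share from 0.944 to 1.33 percentage points, and both missed the threshold in some of these fits. Rises minus falls turned sign in lists near balance. In the large-gap arrays alone it was 1 for the urea cycle and -3 for methionine, which also gave -2 with the gap class as a block, -1 with the 3' to 5' ratio as a covariate and -1 without 35 dpc replicate 3. It was -1 for fatty acid oxidation and for xenobiotic metabolism in the 11 arrays alone, -1 for macrophage and for stellate genes under quantile normalization (stellate also -1 without 63 dpc replicate 4), -1 for glucose release without 35 dpc replicate 1, and in the small-gap arrays -1 for lymphocyte genes and 1 for growth arrest, which was also 1 without 35 dpc replicate 2 or 63 dpc replicate 1. The cause was not tested. No named gene that was called turned sign under any of these alternatives, while CPS1, IGF2, TF and TTR, which were not called, took both signs.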

Other observations

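Probe sets of 1 gene did not always move together. Of 1520 genes with several probe sets kept, 367 had at least 2 called, and in 22 of these the calls went in both directions. For FTL, the ferritin light chain, the probe set at 15.50 at 35 dpc fell by 0.44 and another at 7.99 rose by 1.72. For RAN, a nuclear transport GTPase, 1 probe set rose by 2.42 and another fell by 0.30, and for HSP90AA1, a chaperone, the differences were 0.56, -0.54 and 1.04. RAN and HSP90AA1, and the second probe set of FTL, were chosen after their values were seen.

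Of the 6055 probe sets called, 2679 had no gene symbol. The largest rise in the whole table was among them (5.33 ± 0.48), with every 35 dpc array at or below 3.57 and every 63 dpc array at or above 7.73. Another rose by 4.33 ± 0.39, and the largest fall among those without a name was 5.07.

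Spread between fetuses was alike at both ages, with a median SD of 0.34 at 35 dpc and 0.33 at 63 dpc over all probe sets kept. Over the 1972 called probe sets that changed over 2-fold it was 0.56 and 0.56.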
